A study of Homo sapiens with 11 samples.

Results

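SAA1, SAA2, S100A8, S100A9, LCN2 and C3 are 6 genes of the acute phase response and innate defence, followed here through the formation of an engineered uterine muscle tissue. They were taken by gene symbol from a count table of 78932 genes, and were chosen by measured values, the counts of SAA1, SAA2 and S100A9 being lowest on day 3. How day 3 stood to the other days is therefore described below without a test, and only the comparison of day 6 with day 1, which the choice did not use, was tested. All 6 genes were among the 18245 that passed the filter on low counts, LCN2 narrowly.

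Polyadenylated RNA was sequenced from hTERT-HM, a line of human uterine muscle cells made immortal with telomerase, while it formed engineered myometrial microtissues (EMMIs) over 6 days. There were 3 libraries of day 1, 4 of day 3 and 4 of day 6. All 11 libraries carry the genotype WT and no agent; they differ by day alone. A single immortalised line was used, so the libraries describe that line and not a set of donors. Library totals ran from 28.07 to 33.02 M counts. Of 10 smooth muscle markers 9 passed the filter, with a summed level of 1813 to 2130 CPM (TMM-scaled counts per 1e6) on day 1, 1855 to 1919 on day 3 and 2802 to 3059 on day 6. DES, the gene of the muscle filament protein desmin, reached no more than 3 counts.

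The acute phase response is the change in secreted proteins that follows infection or injury. Interleukin 1 and interleukin 6, acting through NF-kB, C/EBP factors and STAT3, drive it in the liver and in many other cells. SAA1 and SAA2 encode the inducible serum amyloid A proteins, apolipoproteins that also act on leukocyte receptors. S100A8 and S100A9 encode the chains of calprotectin, a heterodimer that binds calcium and zinc and is abundant in neutrophils. LCN2 encodes lipocalin 2, which holds back bacterial siderophores and so iron. C3 encodes the central component of complement, on which its activation pathways converge. In the myometrium inflammatory mediators are known to rise around labour.

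S100A9 and S100A8 lie 29009 bases apart in the S100 cluster, and the sequences just before their starts are shown because this pair had the largest relative differences between days 1 and 3. RefSeq promoter entries (GRCh38.p14) were matched for 3 of the 6 genes, S100A8, S100A9 and LCN2. The 250 bases before the transcription start are written 5′ to 3′ on the coding strand, with the letters TATAAA, the core of a TATA box, in capitals. The first is chr1:153357604-153357853 on the plus strand and the second chr1:153391074-153391323 on the minus strand.
S100A9: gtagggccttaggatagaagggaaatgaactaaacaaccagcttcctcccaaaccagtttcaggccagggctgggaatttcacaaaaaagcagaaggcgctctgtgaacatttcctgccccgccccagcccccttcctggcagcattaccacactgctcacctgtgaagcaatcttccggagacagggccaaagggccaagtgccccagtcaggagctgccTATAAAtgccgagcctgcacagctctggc
S100A8: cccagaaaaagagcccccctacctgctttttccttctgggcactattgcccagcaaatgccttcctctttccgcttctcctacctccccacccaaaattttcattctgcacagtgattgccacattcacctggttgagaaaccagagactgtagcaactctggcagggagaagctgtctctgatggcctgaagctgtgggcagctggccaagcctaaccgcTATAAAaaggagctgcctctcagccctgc
RefSeq gives S100A8 3 starts, and the window of the one that matches the deposited gene start is shown; of the other S100A8 windows one holds the motif at -126 to -121 and one does not hold it. In both windows shown the motif covers bases -29 to -24 from the start, counted so that the last base shown is -1. It was searched for after the sequences had been seen, on both strands, and 10.7% of 35116 windows of this length in the RefSeq table hold it. A longer NF-kB pattern and the shorter GGGNNTNCC, TTGCNNAA (C/EBP), TTCNNNGAA (STAT) and TGANTCA (AP-1) were also searched for on both strands; the 2 NF-kB patterns can overlap. None of these 5 had a match in either window, where 1.73%, 18.2%, 9.05%, 6.57% and 6.57% of all windows hold one. This says only that these letters are not in these windows. In the LCN2 window, not shown and not at the deposited gene start, TTGCNNAA had a match at -143 to -136. TGANTCA had one there at -52 to -46. Whether any match is used in these cells was not tested.

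Serum amyloid A transcripts went down and came back above their starting level. SAA1 (ENSG00000173432, chr11:18266260-18269977, GRCh38) was at 10.2, 11.6 and 9.28 CPM in the day 1 libraries, at 4.50, 4.83, 5.59 and 4.71 CPM on day 3, and at 14.6, 18.8, 25.5 and 16.2 CPM on day 6. The 3 days did not overlap, with day 3 lowest and day 6 highest. Its means were 10.3 ± 1.14 (SD, n = 3), 4.91 ± 0.473 (SD, n = 4) and 18.8 ± 4.81 CPM (SD, n = 4). The day 1 mean was 2.11 times the day 3 mean, and the day 6 mean 3.82 times the day 3 mean. In bulk RNA fewer cells of a kind and less RNA per cell cannot be told apart, here or for any gene below.

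SAA2 (ENSG00000134339, chr11:18239223-18248668) is a nearby gene that encodes the other inducible serum amyloid A. It was at 8.90, 11.8 and 9.12 CPM on day 1, at 4.86, 5.06, 5.13 and 4.46 CPM on day 3, and at 16.3, 23.3, 31.7 and 21.8 CPM on day 6. Again no libraries of different days overlapped. The means were 9.95 ± 1.62 (SD, n = 3), 4.88 ± 0.304 (SD, n = 4) and 23.3 ± 6.36 CPM (SD, n = 4), so that day 1 stood 2.04 times and day 6 stood 4.78 times above day 3.

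**Figure D1:**
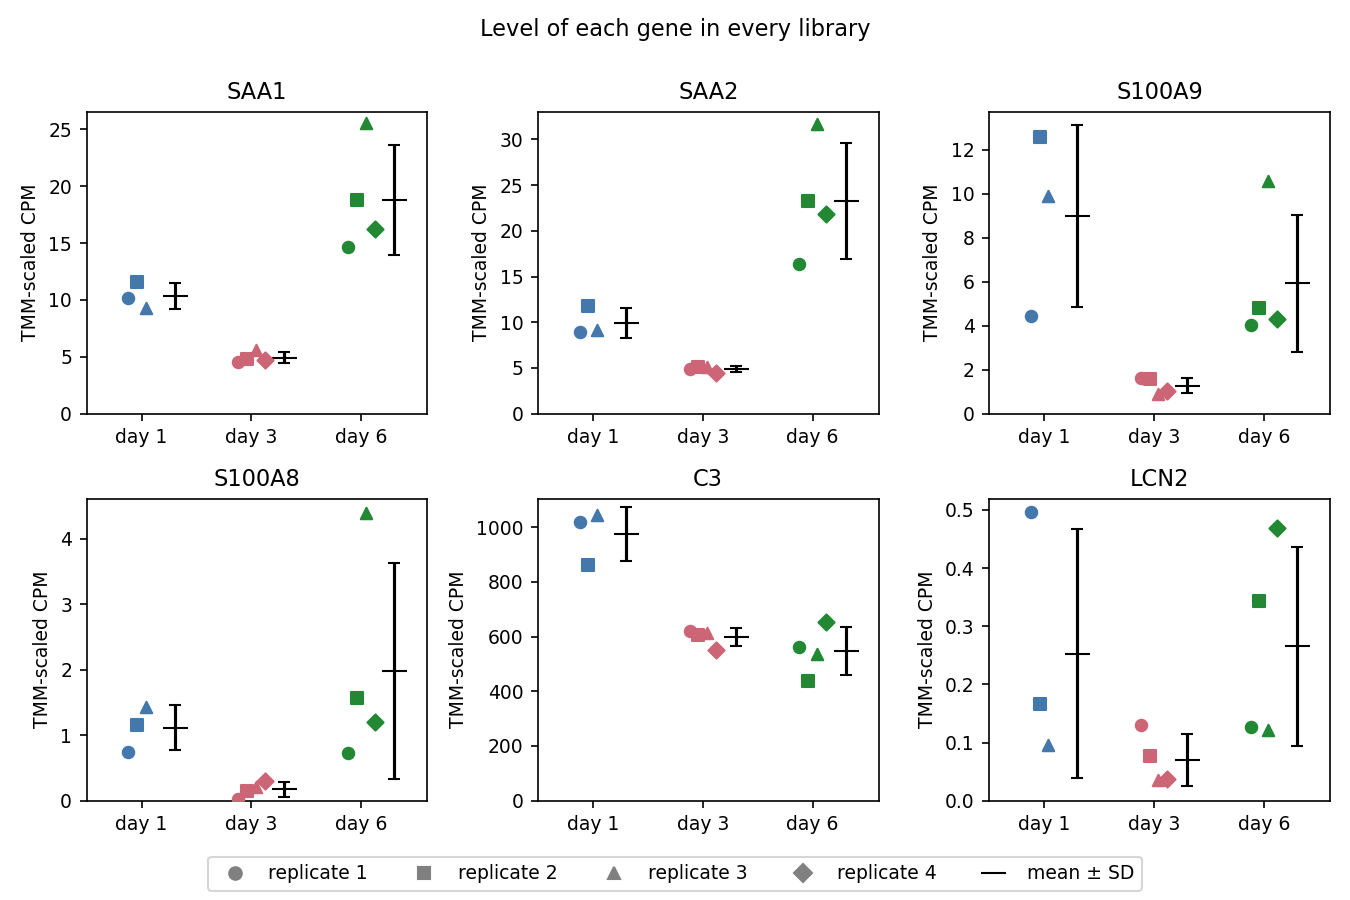
Level of each gene in every library. The vertical axis of each panel is TMM-scaled CPM and starts at 0; marks are libraries, shaped by replicate, and bars are the mean ± SD of a day (n = 3, 4 and 4). SAA1, SAA2, S100A9 and S100A8 lie lowest on day 3 in all 4 libraries, C3 does not come back up on day 6, and LCN2 libraries of the 3 days overlap.

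In the tested comparison, day 6 against day 1, both serum amyloid genes rose. The log2 fold change of SAA1 was 0.86 (SE 0.159, edgeR adjusted p = 0.000612), with an adjusted p of 3.56e-05 to 0.00548 when single libraries were left out in turn. For SAA2 it was 1.23 (SE 0.187, edgeR adjusted p = 0.000248). All 4 day 6 libraries were above all 3 day 1 libraries for either gene. With C3 below, 3 of the 6 genes were called in this comparison, 2 higher and 1 lower, where 39.9% of all genes were called (21.3% higher and 18.7% lower). The same 3 had libraries of days 1 and 6 that did not overlap, as 22.1% of all genes did on the higher side and 19.7% on the lower. Nothing in the labels says that replicates were separate cultures, and the p-values then reflect the spread among these libraries alone, which could be technical.

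SAA1 and SAA2 are near-identical in part, and how reads that map to both were counted is not given in the sources used here. In GENCODE 29 protein-coding transcripts 46.6% of the 50-base windows of SAA1 occur unchanged in SAA2, 28.5% of its 100-base windows and 13.2% of its 150-base windows. The split between the genes is therefore uncertain. With their counts summed to 1 feature, an alternative added after the data were seen, the log2 fold change of day 6 against day 1 was 1.05 (edgeR adjusted p = 0.00087), and the descriptive values were -1.05 for day 3 against day 1 and 2.1 for day 6 against day 3. A readthrough row that joins SAA2 to SAA4 held 0 to 14 counts.

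The share of SAA2 within the pair was highest on day 6. The ratio of SAA2 to SAA1 counts was 0.875, 1.02 and 0.983 on day 1, 1.08, 1.05, 0.918 and 0.945 on day 3, and 1.12, 1.24, 1.24 and 1.35 on day 6. Days 1 and 3 overlapped, and all 4 day 6 libraries lay above both. The means were 0.960 ± 0.0765 (SD, n = 3), 0.998 ± 0.0781 (SD, n = 4) and 1.24 ± 0.0942 (SD, n = 4). For day 6 against day 1 an exact two-sided permutation test gave p = 0.0571, the smallest that 35 assignments allow, so these groups cannot reach p = 0.05; it stayed at 0.0571 after Benjamini-Hochberg adjustment over the 2 ratios tested.

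Calprotectin transcripts had larger relative differences and more spread. S100A9 (ENSG00000163220, chr1:153357854-153361023) was at 4.43, 12.6 and 9.92 CPM on day 1, at 1.60, 1.57, 0.914 and 1.03 CPM on day 3, and at 4.04, 4.78, 10.6 and 4.29 CPM on day 6. All 4 day 3 libraries were below the 7 others, while days 1 and 6 overlapped. Its means were 8.98 ± 4.15 (SD, n = 3), 1.28 ± 0.358 (SD, n = 4) and 5.92 ± 3.12 CPM (SD, n = 4), a ratio of 7.02 for day 1 to day 3 and of 4.63 for day 6 to day 3. Day 6 against day 1 was not called, at a log2 fold change of -0.59 (SE 0.418, 95% interval -1.54 to 0.36, edgeR adjusted p = 0.3). Without day 6 replicate 3, whose 10.6 CPM was the only day 6 value above 5 CPM, the log2 fold change was -1.03 (edgeR adjusted p = 0.0378).

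S100A8 (ENSG00000143546, chr1:153390032-153391073), the partner chain, had few reads. The libraries held 24, 35 and 45 counts on day 1, 1, 4, 6 and 8 counts on day 3, and 23, 50, 145 and 36 counts on day 6. Day 3 was below every other library. As CPM the means were 1.11 ± 0.346 (SD, n = 3), 0.173 ± 0.110 (SD, n = 4) and 1.97 ± 1.65 (SD, n = 4). The summed and library-scaled counts of day 1 were 6.55 times those of day 3 (95% exact interval 3.99 to 11.3), and those of day 6 were 11.9 times those of day 3 (7.46 to 20.1); these intervals cover counting error only. Day 6 against day 1 was not called, at a log2 fold change of 0.84 (SE 0.57, 95% interval -0.43 to 2.11, edgeR adjusted p = 0.275), and at 0.08 (edgeR adjusted p = 0.875) without day 6 replicate 3.

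The ratio of S100A8 to S100A9 counts was 0.168, 0.0923 and 0.144 on day 1, 0.0204, 0.0976, 0.231 and 0.286 on day 3, and 0.181, 0.327, 0.415 and 0.281 on day 6. Day 3 spanned both other days, on 1 to 8 S100A8 counts a library, while every day 6 library lay above every day 1 library. The exact two-sided permutation test of day 6 against day 1 gave p = 0.0571, again the smallest possible, and an adjusted 0.0571. The transcripts of these 2 genes share no 50-base window, so their counts are not mixed by sequence.

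**Figure D2:**
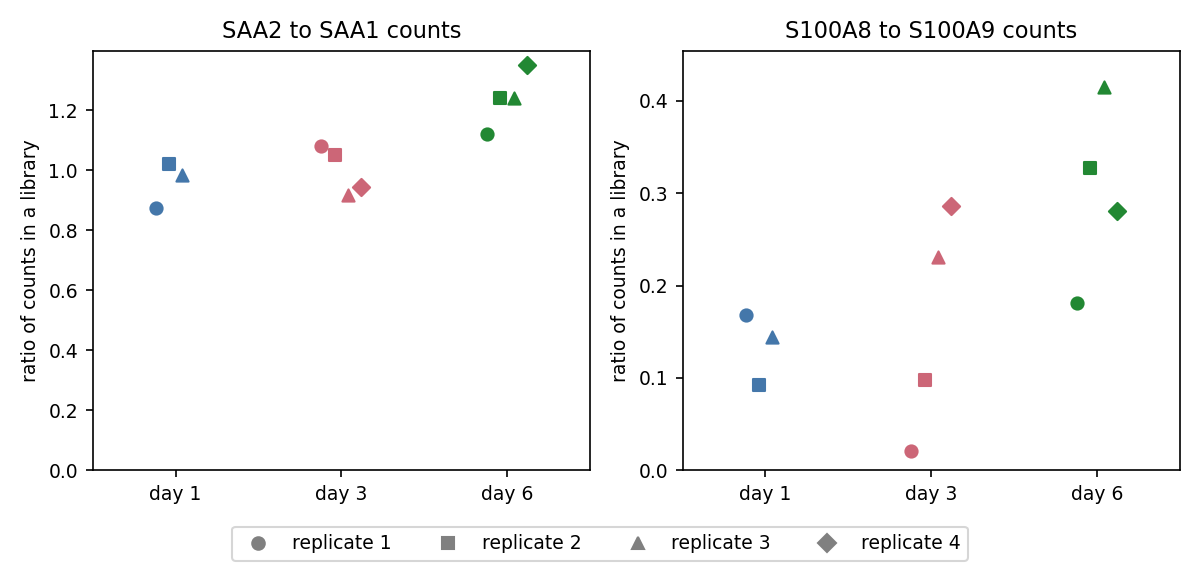
Ratio of SAA2 to SAA1 counts (left) and of S100A8 to S100A9 counts (right) in each library, on vertical axes that start at 0; shapes mark replicates. The day 6 libraries of SAA2 to SAA1, from 1.12 to 1.35, lie above the other 7, and the S100A8 to S100A9 ratio is widest on day 3, from 0.0204 to 0.286.

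C3 went down and stayed down. C3 (ENSG00000125730, chr19:6677704-6730562) was at 1020, 863 and 1043 CPM on day 1, at 622, 607, 612.5 and 552.5 CPM on day 3, and at 563, 439, 537 and 653 CPM on day 6. Days 3 and 6 overlapped, and both lay below day 1. The means were 975 ± 98.2 (SD, n = 3), 598.5 ± 31.3 (SD, n = 4) and 548 ± 88.0 CPM (SD, n = 4). Day 6 was lower than day 1 by a log2 fold change of -0.83 (SE 0.103, edgeR adjusted p = 1.32e-05). Between days 3 and 6 the fitted difference was -0.13 (SE 0.0966), and 0.06 when scaled by library totals only. The label of a dip on day 3 thus does not describe C3. The gene overlaps GPR108, which held 2790 to 3900 counts a library, and whether counting used strand is not given in the sources used here.

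LCN2 (ENSG00000148346, chr9:128149071-128153453) was at the edge of detection. Its libraries held 16, 5 and 3 counts on day 1, 4, 2, 1 and 1 counts on day 3, and 4, 11, 4 and 14 counts on day 6. The 3 days overlapped. A count of 3, the limit that a count of 0 allows, corresponds to 0.0909 to 0.115 CPM in these libraries, and the day 3 mean was 0.0698 ± 0.0448 CPM (SD, n = 4). Summed and scaled counts of day 1 were 3.59 times those of day 3 (95% exact interval 1.56 to 9.25), with 16 of the 24 day 1 counts in replicate 1; without that library the fitted log2 difference went from -1.78 to -0.83. Day 6 against day 1 was not called, at 0.04 (SE 0.556, 95% interval -1.12 to 1.20, edgeR adjusted p = 0.963).

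**Figure D3:**
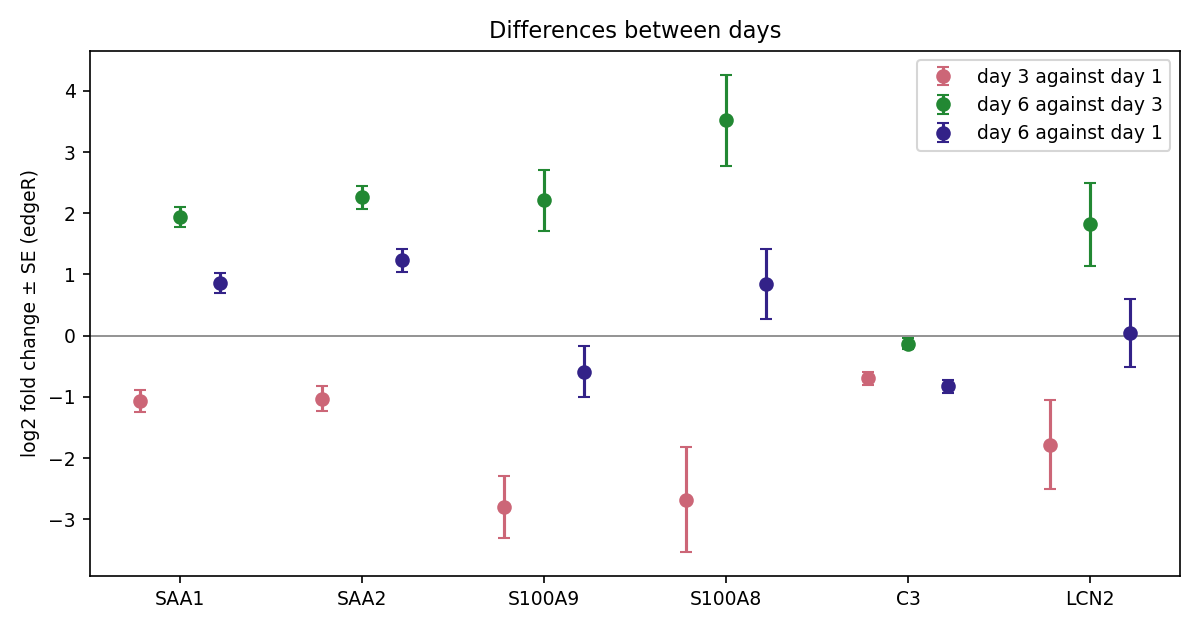
Fitted log2 fold change of each gene between days, with bars of ± 1 SE (edgeR; 3, 4 and 4 libraries). SAA1, SAA2, S100A9, S100A8 and LCN2 are below 0 for day 3 against day 1 and above 0 for day 6 against day 3; C3 is at -0.70, -0.13 and -0.83.

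Counted together, 5 of the 6 genes had all day 3 libraries below all day 1 libraries, where 12.9% of all genes did. All 4 day 3 libraries were below all 7 others for 4 of the 6, SAA1, SAA2, S100A8 and S100A9, where 6.14% of all genes (1120) were. SAA1, SAA2 and S100A9 were chosen for being lowest on day 3, which fixed part of these counts, so nothing is read from them. LCN2 reached 0.131 CPM on day 3 against a lowest value of 0.0953 CPM on the other days, and C3, lower on average on day 6 than on day 3, reached 622 CPM against 439 CPM.

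Set on a scale per kilobase of exon, on which genes can be compared, C3 was far above the rest. Its level was 117 CPM per kb on day 1, rank 283 of 17054 genes with a length, and 71.9 and 65.8 CPM per kb on days 3 and 6. On day 1 S100A9 at 15.6 and SAA1 at 12.98 CPM per kb came next, and their spreads overlapped. SAA2 followed at 4.47, S100A8 at 1.11 and LCN2 at 0.158 CPM per kb. On day 3 SAA1 was second at 6.17 CPM per kb, while S100A9 and SAA2 were level at 2.22 and 2.19. On day 6 SAA1 was at 23.6 CPM per kb and SAA2 and S100A9 at 10.5 and 10.3. The exon length of SAA2, 2227 bases against 796 for SAA1, joins many annotated isoforms, so its level per kb is a low estimate if the short ones are made.

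Within day 6 the serum amyloid and calprotectin genes ranked the libraries alike. Replicate 3 was highest, then replicates 2, 4 and 1, for each of SAA1, SAA2, S100A8 and S100A9. The share of all genes with this order is not given here, and SAA1 and SAA2 counts may be partly mixed, so nothing is read from the shared order. Replicate 3 stood at 1.54, 1.55, 3.76 and 2.42 times the mean of the other day 6 libraries for these 4 genes, against 0.387 for LCN2 and 0.973 for C3. Over 14042 genes of at least 1 CPM the same ratio had a median of 0.981, with 0.732 and 1.29 at the 5th and 95th percentiles. Of 11 other tested S100 genes 7 were also at their day 6 highest there, where 26.8% of all genes were, and S100A1, S100A5, S100A11 and S100A16 were not. S100A4, a calcium-binding protein of motile cells, was at 4.10, 4.44, 11 and 3.02 CPM in day 6 replicates 1 to 4, and S100A7, psoriasin, at 0.223, 0.406, 1.79 and 0.604 CPM. CD14, the monocyte co-receptor of lipopolysaccharide, was at 3.12, 4.22, 9.43 and 5.84 CPM. IL6 and IL1B were at their day 6 lowest in the same library, at 872 and 2726 CPM. The part of CD14 or of these cytokines in the order of libraries was not tested. Without replicate 3 the day 6 against day 3 differences were 1.75 for SAA1, 2.07 for SAA2, 2.76 for S100A8 and 1.77 for S100A9 on the log2 scale, against 1.94, 2.26, 3.52 and 2.21 with it.

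Markers of the cells that make much of these proteins in the body were mostly near 0. Of 12 neutrophil and myeloid markers 8 had at most 3 counts in every library, among them PTPRC, MPO, CEACAM8 and FCN1, and CXCR2 and FCGR3B were at 0. The summed level of the list, mostly CD14, was 7.87 to 11.8 CPM on day 1, 5.74 to 7.10 on day 3 and 3.78 to 10.03 on day 6. Of 10 hepatocyte markers none passed the filter, 7 including ALB had at most 3 counts, and their sum was at most 0.697 CPM. Of 10 epithelial markers, a group that can make calprotectin and lipocalin 2, CDH1, EPCAM and KRT5 had at most 3 counts, and the sum was 43.2 to 49.9, 56.0 to 60.3 and 36.5 to 40.7 CPM on days 1, 3 and 6. Of 8 endothelial markers CLDN5 and ERG had at most 3 counts, and the sum was 48.3 to 49.2, 52.7 to 55.6 and 43.2 to 48.8 CPM. The epithelial and endothelial sums were highest on day 3, where the serum amyloid and calprotectin genes were lowest; their part in those levels was not tested.

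The other acute phase genes did not move as 1 group. Of 28 in the list, 11 that are not among the 6 passed the filter, and 13 did not, most of them liver products: SERPINA3 was at 0 in every library and HP, HAMP and FGB had at most 1 count. From day 1 to day 3, 3 rose and 1 fell, where 6.88% of all genes rose and 5.90% fell. F3, tissue factor, the starter of coagulation, rose from 8.74 ± 1.76 to 16.5 ± 0.735 CPM, with a log2 fold change of 0.92 (SE 0.124, edgeR adjusted p = 0.00013). SERPING1, the C1 inhibitor, rose from 22.04 ± 2.83 to 37.3 ± 4.11 CPM, and SERPINA1, which encodes alpha-1 antitrypsin, from 1.65 ± 0.217 to 2.73 ± 0.233 CPM, a call lost without day 1 replicate 2 (edgeR adjusted p = 0.0664). FTL, the ferritin light chain, fell from 1150 ± 24.1 to 968 ± 51.4 CPM.

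From day 3 to day 6, 3 of the 11 rose and 7 fell, where 26.4% of all genes rose and 23.4% fell; their median log2 fold change was -0.65, beside 0.03 over all genes. PTX3, a soluble pattern recognition pentraxin, rose most of the 11, from 1.93, 2.15, 2.57 and 2.03 CPM on day 3 to 5.25, 7.50, 7.37 and 7.04 CPM on day 6. These days did not overlap, and the log2 fold change was 1.65 (SE 0.145, edgeR adjusted p = 3.44e-08). ITIH3, which encodes a chain that binds hyaluronan, rose by 0.90 and CFB, complement factor B, by 0.62. SERPING1 fell by 1.51, F3 by 1.07 and FTL by 0.65 on the log2 scale. From day 1 to day 6, 3 rose and 4 fell, among them PTX3 at 1.21, ITIH3 at 1.09 and CFB at 0.49 (a call lost without day 1 replicate 1 or 2 or day 6 replicate 4, and with only these days fitted, edgeR adjusted p = 0.0593), and FTL at -0.90, FTH1, the ferritin heavy chain, at -0.66 and SERPING1 at -0.75. Over all genes 21.3% rose and 18.7% fell from day 1 to day 6.

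Complement genes other than C3 moved in both directions. Of 19 other tested members 4 rose and 1 fell from day 1 to day 3, where 6.88% of all genes rose and 5.90% fell. C1R, a protease of the first component, rose from 371 ± 17.5 to 466 ± 18.4 CPM (log2 fold change 0.33, edgeR adjusted p = 0.00426), and CFI, the factor that cleaves C3b, from 1.31 ± 0.392 to 2.22 ± 0.319 CPM. CD46, a membrane cofactor for that cleavage, fell by 0.23 on the log2 scale; the call of CFI was lost without day 1 replicate 2 or 3 or day 3 replicate 2 or 3, and that of CD46 without any 1 of the day 1 libraries or day 3 replicate 1 or 2. From day 3 to day 6, 3 rose and 7 fell, where 26.4% of all genes rose and 23.4% fell. Only 4 of the falls were called when scaled by library totals. C5, the component cleaved after C3, rose from 1.36 ± 0.211 to 5.22 ± 0.919 CPM (log2 fold change 1.94, edgeR adjusted p = 6.73e-08), and MASP1, a lectin pathway protease, by 0.80, a call lost in 4 of the alternatives. C1R and C1S, the paired proteases, fell by 0.84 each. From day 1 to day 6, 5 rose and 5 fell, with 2 rising without day 1 replicate 1 and 3 without day 1 replicate 2 or 3 or day 6 replicate 3, and with C5 at 1.85, C1S at -0.60 and C1R at -0.51. Over all genes 21.3% rose and 18.7% fell from day 1 to day 6, so movement in both directions is not particular to this list.

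Of all genes 6.88% rose and 5.90% fell from day 1 to day 3, and 26.4% and 23.4% from day 3 to day 6. From day 1 to day 6 these shares were 21.3% and 18.7%. Of the other S100 genes, too, more rose late than early. Of 11 tested, 1 rose and 0 fell from day 1 to day 3 (edgeR; 2 were lower at an unadjusted p under 0.05, and 1 fell with DESeq2 or library totals, 3 when day 6 replicate 3 was left out, and 4 when days 1 and 3 were fitted alone). The gene that rose was S100A13, which takes part in the release of fibroblast growth factor 1, by 0.23, a call lost in 9 alternatives including library totals. From day 3 to day 6, 7 rose and 0 fell (edgeR; 0 lower at an unadjusted p under 0.05, and 0 with DESeq2), and 5 to 8 rose when single libraries were left out. S100A10, the partner of annexin A2, was at 44.55, 43.19, 44.68 and 44.75 CPM on day 3 and at 65.7, 84.2, 88.4 and 74.8 CPM on day 6, and rose by 0.82 (SE 0.0753, edgeR adjusted p = 9.01e-08). S100A11 rose by 0.31 and S100A3, an S100 protein of the hair cuticle, by 1.52. From day 1 to day 6, 3 rose, S100A10 by 0.57, S100A16 by 0.24 and S100A11 by 0.19; 1 rose without day 1 replicate 3, 5 without day 1 replicate 2 and 6 without day 6 replicate 1.

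**Figure D4:**
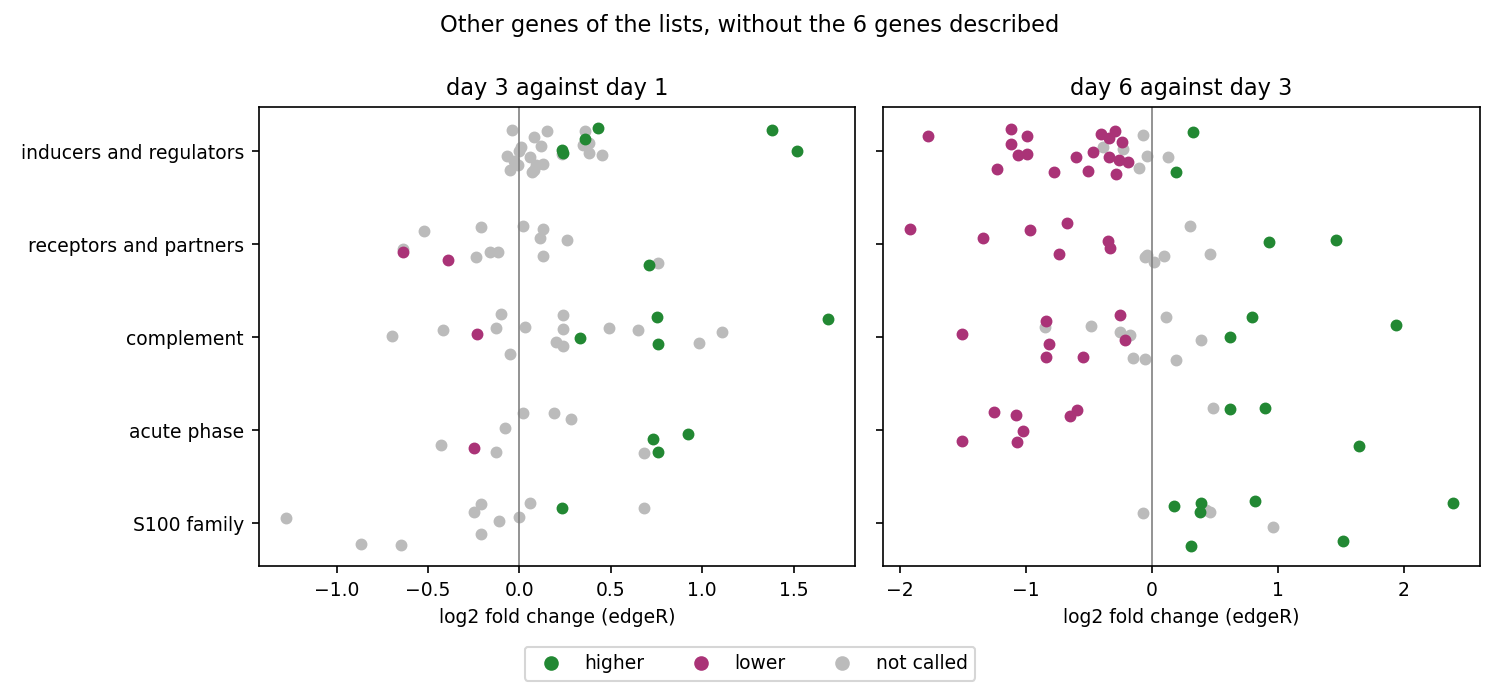
Log2 fold change (edgeR) of the tested genes of 5 lists, without the 6 genes described, for day 3 against day 1 (left) and day 6 against day 3 (right); each dot is a gene, green where called higher, purple where called lower and grey where not called. On the right the inducers and regulators lie mostly below 0, with 19 of 27 lower, and the S100 genes mostly above, with 7 of 11 higher.

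Several of these S100 genes lie near S100A8 and S100A9. Of 8 other tested genes within 200 kb of S100A8, 0 were called between days 1 and 3 (edgeR, and 1 at an unadjusted p under 0.05). Over all genes 12.8% were called between these days. Between days 3 and 6, 5 of the 8 rose, where 26.4% of all genes rose. The 4 of these with a symbol are also counted in the S100 list above: S100A7, by 2.39, S100A3, by 1.52, S100A2, by 0.39, and S100A6, by 0.38 on the log2 scale (edgeR adjusted p = 0.00991, 0.000491, 0.0232 and 0.0111). Without day 6 replicate 3 the values were 1.5 for S100A7, 0.25 for S100A6 and 0.27 for S100A2, the last no longer called (edgeR adjusted p = 0.0993), as also without day 3 replicate 1 or 3. S100A7 was near the edge of detection, at 0.0352 to 0.228 CPM on day 3. It gave no value with only days 3 and 6 fitted, or with at least 1 CPM in at least 3 libraries. S100A4, S100A5 and an unnamed long noncoding RNA were not called, nor did any of the 8 fall. S100A6, calcyclin, was the abundant one, at 1032 ± 42.4, 889 ± 43.6 and 1160 ± 244 CPM on days 1, 3 and 6. Around SAA1, 0 of 6 tested neighbours, SAA2 left aside, were called between days 1 and 3 by edgeR, and 0 at an unadjusted p under 0.05. With 12.8% of all genes called between these days, nothing is read from a count of 0 among so few. SAAL1 and HPS5 rose by 0.50 and 0.35 between days 3 and 6, and the pseudogene ST13P5 and LDHA fell by 0.65 and 0.25.

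In a list of receptors and partners drawn up for these proteins, FPR1 had the same order of days as SAA1 and SAA2. Whether FPR1 binds serum amyloid A was not tested. FPR1, a formyl peptide receptor of phagocytes, was at 5.68, 7.27 and 5.98 CPM on day 1, at 4.24, 4.22, 3.87 and 3.83 CPM on day 3 and at 9.475, 11.5, 13.6 and 9.996 CPM on day 6. No days overlapped. Of all genes 6.14% had all 4 day 3 libraries below all 7 others, so 1 such gene in a list of this size is not read as a result. FPR1 fell by 0.64 to day 3 (edgeR adjusted p = 0.00447) and rose by 1.46 to day 6 (edgeR adjusted p = 1.84e-08). FPR2, also in the list, did not pass the filter, with at most 12 counts in a library. Of the 15 tested genes of the list 1 rose and 2 fell from day 1 to day 3, with 2 rising without day 3 replicate 2 or day 6 replicate 1 and 4 falling without day 6 replicate 3. Over all genes 6.88% rose and 5.90% fell between these days. SLC22A17, the lipocalin 2 receptor, rose by 0.71, from 9.59 ± 0.742 to 15.7 ± 1.1 CPM, and SCARB1, a lipoprotein receptor that also takes up serum amyloid A, fell by 0.39. From day 3 to day 6, 2 rose and 7 fell with TMM scaling, and 4 rose and 5 fell with library totals. Over all genes 26.4% rose and 23.4% fell with TMM scaling. ANXA2, which binds S100A10, rose from 458.5 ± 19.1 to 875 ± 74.3 CPM, by 0.93. TLR2 and TLR4, toll-like receptors, fell by 0.97 and 0.35, and BSG, basigin, a receptor for S100A9, by 0.33; the TLR4 call was lost with library totals (edgeR adjusted p = 0.103). From day 1 to day 6, 3 rose and 6 fell, with FPR1 at 0.82, SLC22A17 at 0.73, ANXA2 at 0.72, TLR2 at -1.13, SCARB1 at -0.44 and BSG at -0.22, the last not called with library totals. Over all genes 21.3% rose and 18.7% fell from day 1 to day 6.

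Most genes in a list of inducers and regulators of acute phase genes fell late, between the days over which SAA1 and SAA2 went up. The list also holds inhibitors, NFKBIA among them, so a fall in it is not always the fall of an inducer. Of 27 tested, 6 rose and 0 fell from day 1 to day 3 (edgeR; 0 were lower at an unadjusted p under 0.05, and 0 fell with DESeq2). The number that rose was 3 without day 1 replicate 2 and up to 9 when other single libraries were left out. Over all genes 6.88% rose and 5.90% fell between these days. LIF, a cytokine of the interleukin 6 family, was at 493, 570 and 612 CPM on day 1 and at 1438, 1647, 1389 and 1338 CPM on day 3, without overlap, and rose by 1.38 (SE 0.2, edgeR adjusted p = 0.00193). STAT3, the transcription factor of that family, rose from 156 ± 4.84 to 200.2 ± 5.73 CPM, by 0.36, and NR3C1, the glucocorticoid receptor, by 0.23, a call lost without day 1 replicate 2 (edgeR adjusted p = 0.0871).

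From day 3 to day 6, 2 of the 27 rose and 19 fell, with a median log2 fold change of -0.34, where 26.4% of all genes rose and 23.4% fell. When single libraries were left out 17 to 21 fell, and 12 with library totals. IL1A and IL1B, the interleukin 1 cytokines, fell by 1.78 (SE 0.1, edgeR adjusted p = 1.9e-09) and by 1.06 (SE 0.121, edgeR adjusted p = 2.83e-06). IL1B went from 6557, 7324, 6209 and 6372 CPM on day 3 to 2800, 3148, 2726 and 4023 CPM on day 6, with no overlap. IL17RA, the interleukin 17 receptor chain, fell by 0.51. IL1RAP, the interleukin 1 receptor accessory chain, rose by 0.33 and CEBPD, a C/EBP factor, by 0.19. From day 1 to day 6, 2 rose and 15 fell; 9 fell with library totals or without day 1 replicate 3, and up to 16 when other single libraries were left out; 5 and 4 rose without day 6 replicates 2 and 3. Over all genes 21.3% rose and 18.7% fell from day 1 to day 6. LIF rose by 0.99 and IL1RAP by 0.46, while IL1A fell by 1.36, NFKBIA, the inhibitor of NF-kB that is itself induced by it, by 0.75, and OSMR, the oncostatin M receptor, by 0.59.

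The genes most like SAA1 over the 11 libraries were found as those with the smallest root mean square difference of log2 CPM, each gene centred on its own mean, among 11897 protein-coding genes of at least 1 CPM. JPH2, junctophilin 2, which ties the sarcoplasmic reticulum to the surface membrane in muscle, was nearest at 0.158 log2 units, nearer than SAA2 at 0.188. It was at 20.4, 21.7 and 16.5 CPM on day 1, at 8.65, 10.4, 9.14 and 10.02 CPM on day 3 and at 25.5, 37.1, 37.6 and 32.8 CPM on day 6. CD163L1, a scavenger receptor, at 0.202, OMA1, a mitochondrial protease, at 0.216 and TRPM2, a cation channel, at 0.219 came next. For SAA2 the nearest were SAA1 at 0.188, JPH2 at 0.259, CD163L1 at 0.267, LRMDA at 0.296 and the histone gene H2BC5 at 0.3.

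S100A9 had no neighbour as close. CYP1A1, a cytochrome P450 induced by aryl hydrocarbons, was nearest at 0.504 log2 units, and VIPR1, a receptor for vasoactive intestinal peptide, second at 0.527. VIPR1 was at 30.9, 58.7 and 31.5 CPM on day 1, at 6.95, 8.63, 6.22 and 5.86 CPM on day 3 and at 43.1, 53.4, 66.5 and 37.8 CPM on day 6. CACNA1S, a calcium channel subunit, at 0.658, VNN2 at 0.696 and NPY, neuropeptide Y, at 0.728 followed. The other genes described here came further down, SAA1 at rank 15 with 0.809, S100A8 at rank 17 with 0.822, SAA2 at rank 22 with 0.857 and C3 at rank 1654 with 1.16. The same differences ranked far lower from the other side, among 11897 genes. For SAA1, S100A9 was at rank 4745 and S100A8 at rank 4949, and for SAA2 they were at ranks 2649 and 1890. By this measure the calprotectin genes were not among the genes nearest to SAA1 or SAA2. The measure depends on the size of a difference as well as its direction. A gene with the same order of days but larger differences can therefore rank low, and these ranks do not compare the order of days.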

How the data were processed

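Per the labels' protocols, mRNA was selected by its poly-A tail, broken by heating and copied with random primers. The deposited values are raw counts per gene, 1 column a library, as the authors made them. The build named in the submitters' processing notes is GRCh38, and the tools are DRAGEN, STAR 2.7.11b, Subread, featureCounts 2.0.8 and Salmon 1.10.0, with no role given; strand setting, annotation release and treatment of reads that map to several places are not given in the sources used here. Of 79031 rows 99 named no gene (at most 1 count in any library) and were left out.

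Genes were kept with filterByExpr (minimum count 10, minimum total 15, by day) and fitted with edgeR 4.0.16 in R 4.3.3 (quasi-likelihood, TMM factors, robust), 1 fit of all 11 libraries by day. A gene was called at a Benjamini-Hochberg adjusted p under 0.05 over all 18245 genes. SE is the log2 fold change over the root of F. Levels are TMM-scaled CPM, mean ± SD. Ratios of counts were compared with exact permutation tests (scipy 1.17.1) that double the smaller tail. Lengths are exon unions of GENCODE 29, which matched 93.5% of the genes kept. Without molecular identifiers reads are not independent molecules, so count limits and intervals cover counting error only. No 2 libraries of a day agreed within sampling noise (chi-square over genes), so each was counted.

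The members and lists were chosen with earlier results of these data known. Named genes were the 6 members, up to 3 risen and 3 fallen called genes per list and comparison with the smallest adjusted p (at least 1 CPM on average), the 5 genes most like SAA1, SAA2 and S100A9, and tested genes within 200 kb; S100A4, CD14, IL6 and the values of genes in day 6 replicate 3 were chosen after they were seen. Alternatives were RLE factors, library totals, DESeq2 1.42.0, no filter, at least 1 CPM in at least 3 libraries, fits of 2 days, replicate blocks, and leaving out each library.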

Additional observations from a re-analysis of the deposited data

Results flagged for a closer look

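Values of 53 named genes and of the 2 count ratios were checked for a library far from the others of its day in 110 groups of 4 libraries, where the gap to the nearest library, over the range, had to exceed Dixon's 95% critical value. Chance alone marks about 1 group in 20, and 5 were marked. S100A9 in day 6 replicate 3 was at 10.6 CPM, where the other day 6 libraries ran from 4.04 to 4.78. CFI in day 6 replicate 1 was at 1.62 CPM (others 1.12 to 1.16). S100A10 in day 3 replicate 2 was at 43.2 CPM (others 44.5 to 44.7). IL17RA in day 6 replicate 2 was at 79.2 CPM (others 90.3 to 91.8). NFKBIA in day 3 replicate 2 was at 374 CPM (others 329 to 334). S100A10 and NFKBIA were marked in the same library.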

How the results depend on the processing

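The calls of SAA1, SAA2 and C3 between days 6 and 1 held under every alternative that gave a value (20, 19 and 19), with adjusted p from 1.96e-16 to 0.00554, 1.58e-21 to 0.00331 and 1.83e-25 to 0.00101. S100A9, not called with all libraries, ran from -1.03 to -0.28 on the log2 scale as single libraries were left out and was called once, without day 6 replicate 3. LCN2 between days 3 and 1 ran from -2.29 to -0.83, the last without day 1 replicate 1; it could not be fitted with at least 1 CPM in 3 libraries, with only days 1 and 3 or days 3 and 6, or without day 6 replicates 2 or 4, because it failed the filter. C3 between days 6 and 3 was at 0.06 with library totals. Genes called between days 3 and 1 numbered 3616 in place of 2332 when only these days were fitted, and 1344 to 2998 when single libraries were left out (1344 without day 1 replicate 1 and 1352 without day 1 replicate 2). With library totals the median of all genes moved by 0.184 (days 6 and 3) and 0.127 (days 6 and 1) on the log2 scale, and calls were 840 higher and 1630 lower in place of 1255 and 1077 (days 3 and 1), 7877 and 2245 in place of 4825 and 4277 (days 6 and 3), and 5958 and 2042 in place of 3882 and 3405 (days 6 and 1). Same-numbered libraries of different days correlated at -0.0226 to 0.103 and same-lettered ones at -0.0833 to 0.0221. The highest values between libraries of different days, 0.103, 0.0725 and 0.0657, were of same-numbered ones. With 3 or 4 libraries a day these small values cannot settle whether samples were paired. With a replicate block by number S100A8 stood at 0.77 between days 6 and 1 (edgeR adjusted p = 0.0597). A replicate block by number gave 2191, 9162 and 7119 calls for days 3 and 1, 6 and 3, and 6 and 1, in place of 2332, 9102 and 7287, and a replicate block by column letter 1699, 7716 and 5182; with the letter block S100A8 stood at 1.5 between days 6 and 1 (edgeR adjusted p = 0.0321; 0.0321 to 0.875 over all alternatives), and the calls of FTL (0.0556), CD46 (0.115) and S100A13 (0.13) between days 3 and 1, MASP1 (0.0541) between days 6 and 3, and S100A16 (0.124) and S100A11 (0.147) between days 6 and 1 were lost. Of 1140 values of 60 called differences of listed genes, 1104 kept their call and direction, 36 lost the call and 0 reversed. Depth limits LCN2 and S100A8 most, at 1 to 8 counts a library on day 3.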

Other observations

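The genes around C3 and LCN2 were looked at as well. Over all genes 12.8% were called between days 1 and 3. With so few neighbours nothing is read from the counts. Of 7 tested genes within 200 kb of C3, 0 were called between days 1 and 3 by edgeR (0 at an unadjusted p under 0.05), and between days 3 and 6 none rose and 3 fell, among them TNFSF9, a ligand of the tumour necrosis factor family, from 6.44 ± 0.852 to 2.02 ± 0.351 CPM (SD, n = 4 and 4). Of 16 tested genes within 200 kb of LCN2, 1 rose and 1 fell between days 1 and 3, BBLN from 73.4 ± 2.36 to 90.6 ± 4.75 CPM and EEIG1 from 108.8 ± 4.74 to 89.8 ± 7.71 CPM. Between days 3 and 6, 1 of the 16 rose and 7 fell, with SLC25A25, a mitochondrial carrier, from 42.8 ± 3.22 to 28.9 ± 1.56 CPM and GOLGA2, a Golgi matrix protein, from 253 ± 11.3 to 202 ± 16.2 CPM. Over all genes 26.4% rose and 23.4% fell between these days.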
